A study of Mus musculus with 12 samples.

Results

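The genes described here are 10 mouse immediate early genes, *Fos*, *Fosb*, *Junb*, *Egr1*, *Ier2*, *Ier5*, *Nr4a1*, *Arc*, *Atf3* and *Dusp1*. They were chosen by name, with earlier results of these data known. Every probe set that the array annotation assigns to 1 of these symbols alone was taken. This gave 12 probe sets, 3 of them for *Ier5* and 1 for each other gene, out of 45037 probe sets and 18194 named genes on the array. Total RNA of whole retinas was hybridised to 1-colour arrays at postnatal day 1 (P1) and postnatal day 12 (P12). The *Otx2* conditional knockout (CKO) mice were otx2 flox/flox; Crx-Cre+, and the control mice were otx2 flox/flox; Crx-Cre-, so that the floxed gene was present in every animal and the Cre transgene, driven by the *Crx* promoter in developing photoreceptor cells, set the groups apart. There were 3 arrays in each of 4 groups: CKO at P12, control at P12, CKO at P1 and control at P1. The mice were kept in a 12 h light and dark cycle, the retinas were taken with forceps, and the hour of dissection and the number of animals behind an array are not given in the sources used here.

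Immediate early genes are transcribed within minutes of a stimulus without the need for new protein. In neurons the usual stimuli are synaptic activity, growth factors and stress, which act through MAP kinase, calcium and cyclic AMP signalling on the transcription factors SRF and CREB already bound at these promoters, and the short-lived mRNAs then decay. In the retina light and handling of the tissue can induce them. *Fos*, *Fosb* and *Junb* encode subunits of the dimeric factor AP-1, *Atf3* encodes a stress-induced relative of these subunits, *Egr1* a zinc finger factor and *Nr4a1* an orphan nuclear receptor. *Ier2* and *Ier5* encode related nuclear proteins that take part in transcription, *Arc* a synaptic protein and *Dusp1* a phosphatase that switches off MAP kinases.

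The promoter windows of 3 members are printed because *Fos* and *Nr4a1* fell and *Ier5* rose in the P12 CKO retina. Each holds the 250 bases before an annotated start in mouse build GRCm38.p6, from RefSeq, and windows of 7 of the 10 members were matched and searched. The *Fos* window is chr12:85473640-85473889 on the plus strand, that of *Nr4a1* is chr15:101266596-101266845 on the plus strand, at a start inside the annotated gene, and that of *Ier5* is chr1:155099637-155099886 on the minus strand. Capitals mark TGACG, the core of the CREB recognition sequence, or CGTCA, its reverse complement, and the TATA motif TATAAA.
*Fos*: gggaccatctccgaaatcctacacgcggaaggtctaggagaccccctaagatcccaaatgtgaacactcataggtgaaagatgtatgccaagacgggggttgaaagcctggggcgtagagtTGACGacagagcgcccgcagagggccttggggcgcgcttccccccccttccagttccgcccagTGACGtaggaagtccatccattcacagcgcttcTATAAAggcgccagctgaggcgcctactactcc
*Nr4a1*: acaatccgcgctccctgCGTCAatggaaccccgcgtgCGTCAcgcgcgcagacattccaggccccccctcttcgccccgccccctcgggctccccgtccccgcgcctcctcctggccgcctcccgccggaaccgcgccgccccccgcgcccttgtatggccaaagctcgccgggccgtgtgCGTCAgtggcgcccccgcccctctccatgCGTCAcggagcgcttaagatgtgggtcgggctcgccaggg
*Ier5*: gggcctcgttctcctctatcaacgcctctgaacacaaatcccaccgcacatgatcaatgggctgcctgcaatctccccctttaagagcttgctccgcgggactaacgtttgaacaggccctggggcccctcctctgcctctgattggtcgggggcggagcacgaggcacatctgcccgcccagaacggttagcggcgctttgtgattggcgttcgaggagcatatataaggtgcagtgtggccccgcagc
The *Fos* window held TGACG at 129 and at 66 bases before the start and TATAAA at 33 bases, all on the strand of the gene. The *Nr4a1* window held TGACG 4 times, at 233, 213, 69 and 40 bases, on the opposite strand each time. The *Ier5* window held neither of these exact strings. It held TATATAA near its end, a string that was not searched for. Over both strands, 17.8% of 32841 such windows of the genome held TGACG at least once, 0.137% held it 4 times or more, and 12.4% held TATAAA. Among the other members with a window, *Dusp1* had 3 copies, 2 of which overlapped as the full palindrome TGACGTCA (1.55% of windows), and *Fosb*, *Junb* and *Atf3* had 1 copy each. The AP-1 motif TGANTCA (6.75% of windows), the homeobox motif TAATCC bound by Otx2 and Crx (6.25%) and the CArG box bound by SRF (1.47%) were found in none of the 7 windows. *Egr1*, *Ier2* and *Arc* had no window searched, and sites more than 250 bases before a start were not looked for. The absence of a motif here therefore does not show that these genes lack it. These are matches of letters in short windows and not measured binding sites.

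All signals below are the deposited array signals after quantile normalization over the 12 arrays, in arbitrary units, and log2 changes were taken on log2(signal + 16), which understates the change of dim probe sets. *Otx2* itself (1425926_a_at) had normalized signals of 67.5 to 114 in CKO and 588 to 938 in control at P12 (log2 change -2.72, limma adjusted p = 1.54e-06). At P1 it had 337 to 427 in CKO and 639 to 902 in control (-1.02, adjusted p = 0.159). The genotype groups did not overlap at either age. The free-text description of 8 of the 12 arrays names the other genotype than the title, source name and genotype field, which were used here, and the *Otx2* signal was lower on every array titled CKO than on every control array of its age. The deposited trimmed mean signal differed between ages, with 96.2 to 171 on the P12 arrays and 21.5 to 29.7 on the P1 arrays. The 3′ to 5′ ratio of the Gapdh control probe sets lay between 0.671 and 0.832 on all arrays. Within groups the arrays correlated at 0.890 to 0.980, and were least alike in the P12 control group (0.890 to 0.952).

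Of the 10 genes, 6 passed the signal limit of 50 in at least 1 group and were tested in 1 or more comparisons, and 4 did not. *Arc*, *Atf3*, *Fosb* and *Junb* were the 4 dim genes. Among the tested genes no order of signal is drawn, since probe sets of different genes are not comparable in level.

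**Figure D1:**
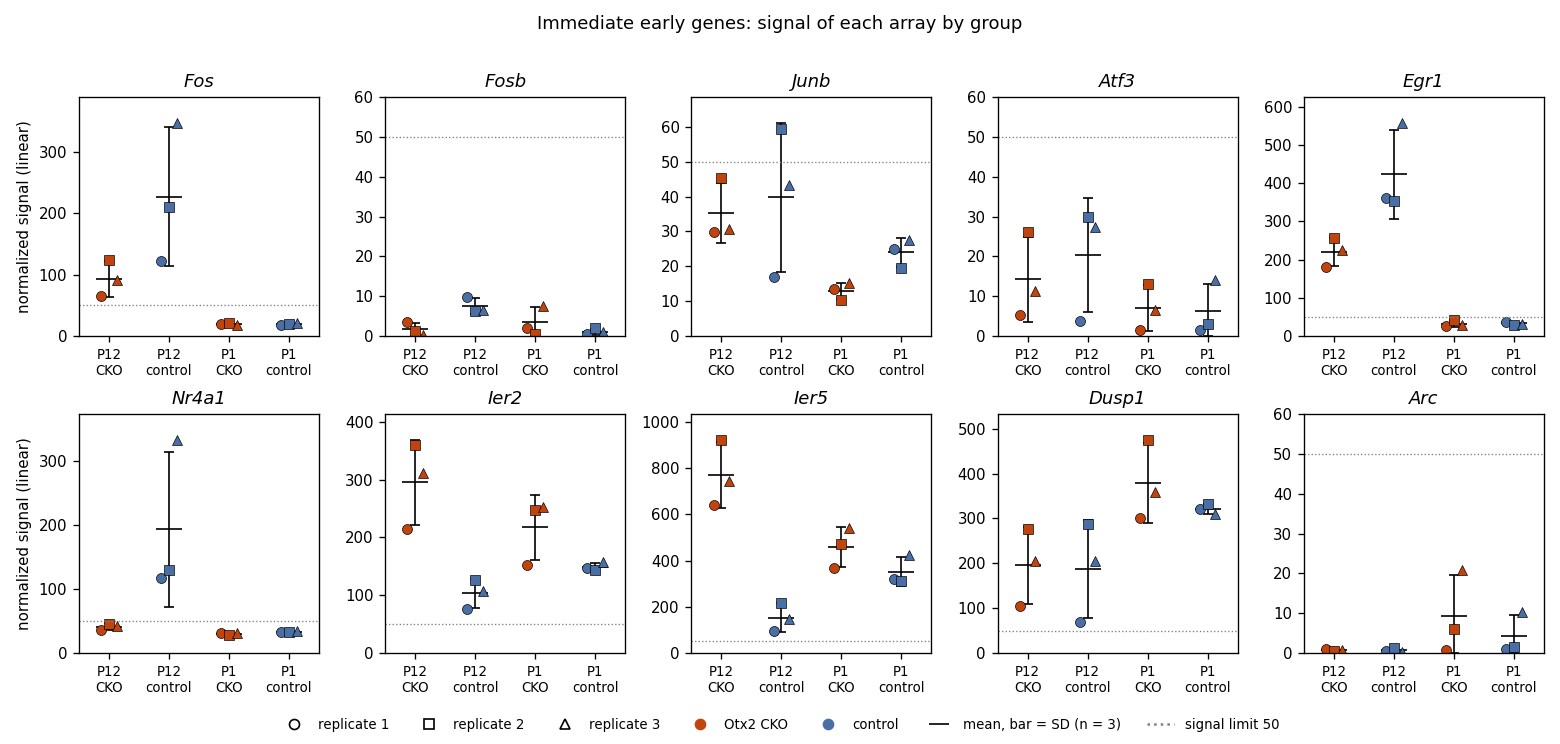
Normalized signal (arbitrary units, linear axis) of the 10 genes by group, with 1 point for each array, a line at the mean, a bar for the SD (n = 3) and a dotted line at the signal limit of 50. At P12 the CKO points of *Nr4a1* and *Egr1* lie below, and those of *Ier2* and *Ier5* above, all control points.

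At P12, 5 of the 6 tested genes differed between CKO and control retina, beside 16.5% of the 16989 probe sets tested. The genes were chosen with earlier results of these data known, so the share is given for scale and not as a test. *Nr4a1*, *Fos* and *Egr1* fell and *Ier5* and *Ier2* rose, so that the immediate early genes moved in opposite directions. The share called in each direction over all probe sets was 8.01% higher and 8.51% lower. The median log2 change of the 6 genes was -0.36, and that of all tested probe sets was 0.07. In whole retina, fewer cells of a type and less RNA per cell cannot be told apart.

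*Nr4a1* (1416505_at, chr15:101253902-101274795) had the largest fall. Its normalized signals were 35.2, 45.1 and 42.9 in CKO replicates 1 to 3, against 117, 130.0 and 333 in control replicates 1 to 3. The groups did not overlap, and the highest array was control replicate 3. The means were 41.1 ± 5.17 in CKO and 193 ± 121 in control (SD, n = 3 each), a 4.71-fold lower signal in CKO (log2 change -1.73, SE 0.30, limma adjusted p = 9.84e-04). Each CKO array was below the control array of the same experiment number, at ratios of 0.302, 0.347 and 0.129. The CKO mean at P12 was below the signal limit of 50. Arrays lay apart between these groups for 25.8% of all tested probe sets.

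*Egr1* (1417065_at, chr18:34861207-34864956) had 180.5, 255 and 224 in CKO, against 360.5, 352 and 558 in control. The groups did not overlap, and the top array was again control replicate 3. The means were 219.9 ± 37.5 in CKO and 424 ± 117 in control (SD, n = 3 each), 1.93-fold lower in CKO (log2 change -0.88, SE 0.23, limma adjusted p = 0.0159).

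*Fos* (1423100_at, chr12:85473890-85477274) had 64.7, 123.4 and 91.0 in CKO, against 122.7, 210.3 and 348 in control. The highest CKO array and the lowest control array were nearly equal, so the groups just overlapped, while within each experiment number CKO was lower, at ratios of 0.527, 0.587 and 0.262. The means were 93.0 ± 29.4 in CKO and 227 ± 114 in control (SD, n = 3 each), 2.44-fold lower in CKO (log2 change -1.08, SE 0.30, limma adjusted p = 0.0250). The falls of *Fos* and *Egr1* lost their call when 1 array was left out. Without control replicate 3 the change was -0.73 for *Fos* (adjusted p = 0.111) and -0.67 for *Egr1* (0.0795), and without CKO replicate 1 it was -0.89 (0.0890) and -0.77 (0.0544). *Fos* also lost it without CKO replicate 3 (-1.09, adjusted p = 0.0682). On the signals as deposited the changes were -0.81 for *Fos* (0.0776) and -0.56 for *Egr1* (0.0915). Over all alternatives the adjusted p ran from 0.00150 to 0.148 for *Fos* and from 0.00266 to 0.109 for *Egr1*.

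*Ier5* (chr1:155096367-155099636) had the largest rise. Its brightest probe set, 1417612_at, had 639, 923 and 745 in CKO, against 94.7, 218 and 147 in control. Every CKO array was far above every control array. The means were 769 ± 144 in CKO and 153 ± 62.1 in control (SD, n = 3 each), a 5.02-fold higher signal in CKO (log2 change 2.26, SE 0.26, limma adjusted p = 3.00e-05). The probe set 1460009_at, dimmer, had 293, 235 and 175 in CKO, against 22.2, 25.3 and 44.4 in control (log2 change 2.43, adjusted p = 1.31e-05), also without overlap. The study's own list of genes raised in the P12 CKO retina already holds this probe set. The probe set 1417613_at had 31.0, 174 and 145 in CKO, against 19.2, 41.7 and 28.3 in control. Here CKO replicate 1 lay among the control arrays after normalization, and the change of 1.33 (adjusted p = 0.0414) was lost after the omission of 1 array in 9 of 12 cases, all but those of P1 CKO replicate 1, P12 CKO replicate 1 and P12 control replicate 2 (adjusted p up to 0.165). As deposited its signals were apart, with 83.3, 264.4 and 225.2 in CKO against 35.2, 50.8 and 38.7 in control.

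*Ier2* (1416442_at, chr8:84661331-84662852) had 215, 359 and 312 in CKO, against 75.8, 126 and 108 in control. The groups did not overlap, and the ratio of CKO to control was nearly the same in each experiment, at 2.83, 2.85 and 2.89. The means were 295 ± 73.9 in CKO and 103 ± 25.4 in control (SD, n = 3 each), 2.86-fold higher in CKO (log2 change 1.38, SE 0.25, limma adjusted p = 0.00146). *Nr4a1*, *Ier2* and *Ier5* (1417612_at) kept their P12 calls under all 28 alternatives run for single probe sets, with the adjusted p reaching at most 0.0292, 0.0215 and 0.00295.

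*Dusp1* (1448830_at, chr17:26505591-26508472) was the tested gene without a call at P12. It had 105, 277 and 205 in CKO, against 69.9, 287 and 205 in control. The 2 groups overlapped over most of their range. The log2 change was 0.15 with a 95% interval of -0.71 to 1.01 (limma adjusted p = 0.853). Its direction was not stable, from -0.38 to 0.52 when single arrays were left out.

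**Figure D2:**
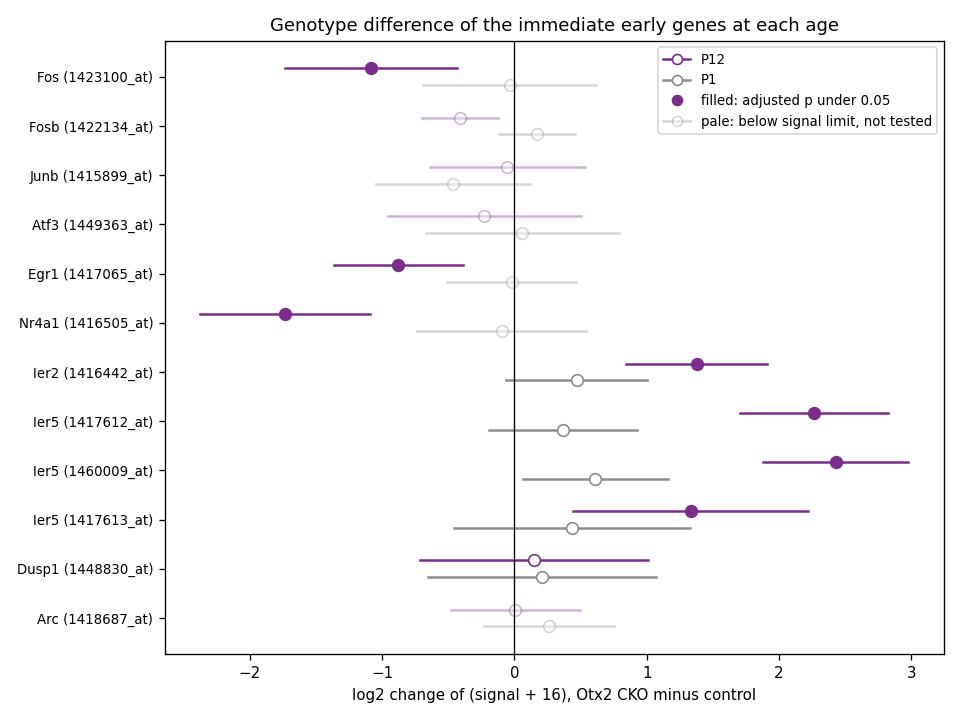
Log2 change of (signal + 16) of each of the 12 probe sets, CKO minus control, at P12 and at P1, with bars for the 95% interval of the limma fit, filled points for an adjusted p under 0.05 and pale ones for probe sets below the limit. At P12 the intervals of *Fos*, *Egr1* and *Nr4a1* lie below 0 and those of *Ier2* and *Ier5* above it, while that of *Dusp1* spans it.

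The 4 dim genes were below the limit at both ages and were not tested. *Fosb* (1422134_at, chr7:19302696-19310118) had 3.51, 1.14 and 0.325 in CKO at P12, against 9.79, 6.17 and 6.55 in control. These were apart after normalization and overlapped as deposited. *Atf3* (1449363_at, chr1:191170296-191183333) had 5.33, 26.1 and 11.4 in CKO at P12, against 3.81, 29.9 and 27.3 in control. *Junb* (1415899_at, chr8:84976909-84978748) had 29.7, 45.3 and 30.8 in CKO at P12, against 16.8, 59.3 and 43.2 in control, with overlap. At P1 it had 13.3, 10.4 and 15.1 in CKO, against 24.9, 19.5 and 27.7 in control, where the CKO arrays were all lower. *Arc* (1418687_at, chr15:74669081-74672570) did not exceed 1.23 on any P12 array and reached 20.8 at P1. Values this low carry little information on any of the 4.

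At P1 none of the members was called. *Ier2*, *Ier5* and *Dusp1* passed the signal limit, and 0 of these 3 had a limma adjusted p under 0.05, beside 0.246% of the 15885 probe sets tested. By their brightest probe sets 0 of 3 had an unadjusted p under 0.05. *Ier2* had 153, 248 and 252 in CKO, against 147, 144 and 157 in control (log2 change 0.47, SE 0.25, adjusted p = 0.999). *Ier5* (1417612_at) had 367, 471 and 539 in CKO, against 319, 313 and 424 in control (0.36, 95% interval -0.19 to 0.92, adjusted p = 0.999). In both genes the lowest CKO array lay within the control range and the other CKO arrays above it. The probe set 1460009_at of *Ier5* had 109, 79.3 and 88.5 in CKO, against 70.4, 40.0 and 56.1 in control. These arrays were apart after normalization, as were those of 9.74% of all probe sets, and overlapped as deposited. The change of 0.61 had an unadjusted p of 0.0315 and an adjusted p of 0.999. *Dusp1* had 301, 475 and 359 in CKO, against 320.0, 332 and 309 in control (0.21, interval -0.65 to 1.07).

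The difference of the genotype effects, the P12 effect minus the P1 effect, was called for 2 of the 6 genes, beside 4.46% of 18652 probe sets. For *Ier5* (1417612_at) it was 1.90 on the log2 scale (SE 0.37, limma adjusted p = 0.00745), for 1460009_at 1.82 (0.00899) and for 1417613_at 0.90 (SE 0.59, 0.520), which was not called except without P12 CKO replicate 1 (1.49, 0.0303) or both P12 arrays of experiment 1 (1.34, 0.0359). With median scaling the adjusted p was 0.164 for 1417612_at of *Ier5*, so that it lost the call, and 4.67e-05 to 0.164 over its alternatives. For *Nr4a1* it was -1.64 (SE 0.42, adjusted p = 0.0420). Omitting a single array cost *Nr4a1* this call in 9 of 12 cases, for each of the 6 P1 arrays and each of the 3 P12 CKO arrays (adjusted p up to 0.104), and over all alternatives its adjusted p ran from 0.00480 to 0.116, the highest with median scaling. *Nr4a1* passed the signal limit only in control at P12 (mean 193). Its means were 41.1 in CKO at P12, 30.4 in CKO at P1 and 33.6 in control at P1. Its P1 effect was too dim to test, so this difference largely restates its P12 effect. The differences for *Fos* (-1.05, adjusted p = 0.244), *Egr1* (-0.86, 0.186) and *Ier2* (0.91, 0.208) were not called in the main fit, which does not use the pairing by experiment number. With the experiment number as a block that of *Ier2* was called (adjusted p = 0.0404). With a block within each age, *Ier2* (0.0127), *Fos* (0.0277) and *Egr1* (0.0383) were called. *Fos* was also called without P12 control replicate 1 (-1.41, adjusted p = 0.0391).

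The age comparisons use the same arrays as the genotype comparisons and are not independent of them. *Egr1* and *Fos* were dim in the newborn retina of either genotype and brighter at P12 in both. *Egr1* had 27.0, 41.7 and 28.6 in CKO at P1 and 36.8, 29.3 and 32.2 in control at P1. Its log2 change, P12 over P1, was 2.28 in CKO (limma adjusted p = 6.28e-06) and 3.14 in control (1.51e-07). *Fos* had 20.0, 20.5 and 17.2 in CKO at P1 and 18.5, 20.2 and 21.6 in control at P1. It rose by 1.60 in CKO (adjusted p = 0.00147) and by 2.64 in control (1.27e-05), with every P12 array above every P1 array of its genotype. Arrays of the ages lay apart for 41.7% of all tested probe sets in CKO and for 50.9% in control. *Nr4a1* had 32.1, 28.5 and 30.7 in CKO at P1 and 33.1, 33.3 and 34.4 in control at P1. In control it rose by 1.93 (adjusted p = 1.72e-04), while in CKO both ages were below the signal limit, with a change of 0.29 that was not tested.

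*Ier5*, *Ier2* and *Dusp1* were bright already at P1. In control *Ier5* (1417612_at) fell with age by 1.17 on the log2 scale (limma adjusted p = 0.00271), to a mean of 153 ± 62.1 at P12, against 352 ± 62.4 at P1. The other *Ier5* probe sets changed in control by -0.62 (1460009_at, adjusted p = 0.0679) and by -0.93 (1417613_at, 0.0907), which were not called, although 1460009_at was called without P12 control replicate 3 (-0.81, 0.0323) and 1417613_at without P12 CKO replicate 1 (-0.90, 0.00798). In CKO the means of 1417612_at were 769 ± 144 at P12 and 459 ± 86.8 at P1, and its change of 0.73 was not called (adjusted p = 0.0525). The probe set 1460009_at of *Ier5* was called higher with age in CKO (1.19, adjusted p = 0.00338), without overlap of the arrays, and 1417613_at changed by -0.03 (0.963), with 0.60 without P12 CKO replicate 1 and 0.14 without P1 CKO replicate 3. Ordered by mean, 1417612_at of *Ier5* was highest in CKO at P12, then CKO at P1, control at P1 and control at P12, and the neighbours CKO at P12 and CKO at P1, and CKO at P1 and control at P1, did not pass the test. The CKO change of 1417612_at was called without P12 control replicate 1 (adjusted p = 0.0189), P12 control replicate 2 (0.0192) or P12 CKO replicate 1 (0.0453). *Ier2* changed by 0.42 in CKO (0.239) and by -0.49 in control (0.132), and *Dusp1* by -0.97 in CKO (0.0907) and by -0.91 in control (0.0878). *Dusp1* was called in CKO without P12 control replicate 1 (0.0185), P12 control replicate 2 (0.0471) or P12 CKO replicate 2 (0.0493), and in control without P12 control replicate 2 (0.0177). When experiment numbers were fitted as a replicate block, the changes of *Ier5* (1417612_at, 0.0109) and *Dusp1* (0.0121) in CKO were called. In control those of *Ier2* (0.0329), *Dusp1* (0.0125) and both other *Ier5* probe sets (1460009_at, 0.0407, and 1417613_at, 0.0313) were called. That block also links P1 and P12 arrays of the same number, a pairing that was examined only within each age.

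With age, 2 of 5 tested members were called in CKO (27.5% of 17259 probe sets), and 4 of 6 in control (39.4% of 17646 probe sets). These directions depend on the scale. On the signals as deposited the median of all probe sets was higher at P12 by 1.85 in CKO and by 1.45 in control, and there the control changes were 0.50 for *Ier5*, 1.06 for *Ier2* and 0.81 for *Dusp1*, of the opposite sign. *Ier5* and *Ier2* lay below, and *Egr1* and *Fos* above, the median shift of all probe sets in control on that scale, where *Egr1* changed by 4.39 and *Fos* by 3.75.

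Within groups the 6 tested members varied somewhat more than other probe sets, with a median residual SD of 0.371 on the log2 scale, beside 0.308 over 18652 probe sets. *Dusp1* had the widest spread (0.596) and *Egr1* the narrowest (0.251). After normalization replicate 1 of the P12 CKO group was the lowest array and replicate 2 the highest for 6 of 6 genes. Over all probe sets those arrays were lowest for 45.7% and highest for 45.6%. As deposited, *Dusp1* alone was lowest in CKO replicate 1, where *Egr1* (441.9, 398.7 and 346.7) and *Nr4a1* (93.9, 60.1 and 69.2) were highest. The deposited trimmed mean was 171 on that array, against 108 and 109 on CKO replicates 2 and 3. In the P12 control group, after normalization, replicate 1 was the lowest for 5 of 6 genes (44.7% of all probe sets). There *Fos*, *Egr1* and *Nr4a1* were highest in replicate 3 (19.2% of all probe sets), and *Ier2*, *Ier5* and *Dusp1* in replicate 2 (47.3%). The mean deviation of the 6 genes from their group means was -0.56, 0.16 and 0.40 in P12 control replicates 1 to 3, and at P1 it lay between -0.18 and 0.14 on every array. *Fos* followed the mean deviation of the other 5 genes most closely over the 12 arrays (Pearson's r = 0.882) and *Nr4a1* least (0.518). Outside the members the genes closest to their mean deviation, among 9987 genes, were *Tbl3* (r = 0.981), *Adh5*, *Hsd17b4*, *Csnk2a2*, *Hikeshi*, *Sdc4*, *Txnl4a*, *Mrpl52*, *Spry2* and *Psmg1* (0.954). These correlations describe shared differences between 12 arrays, scaling included.

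**Figure D3:**
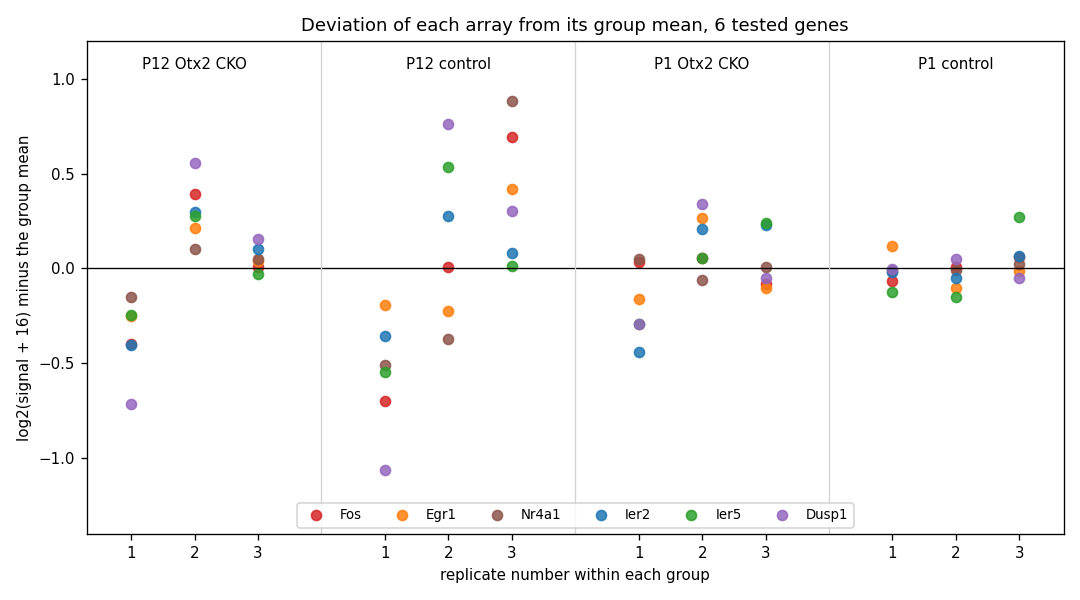
Deviation of log2(signal + 16) of each of the 6 tested genes from its group mean, on each of the 12 arrays by replicate number. On the P12 CKO arrays all 6 genes are lowest in replicate 1 and highest in replicate 2, an order that the deposited signals do not show. The P12 control arrays spread more widely than the P1 arrays. At P1 *Fos*, *Egr1* and *Nr4a1* are below the signal limit, where the added 16 narrows their deviations.

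Markers of retinal cell types also differed between the genotypes at P12. All 4 rod and all 5 cone markers with a probe set fell, as did 4 of 4 tested bipolar cell markers, with a summed rod signal of 446 to 975 in CKO and 17958 to 19228 in control. All 6 tested markers of microglia and macrophages rose (summed signal 863 to 1446 in CKO and 294 to 493 in control). For Muller glia 3 of 7 markers rose and 4 did not pass, at sums of 9681 to 11107 in CKO and 5690 to 6977 in control. Within those sums *Apoe* alone averaged 3890 in CKO and 1095 in control. Among the markers that did not pass were *Glul* (log2 change 0.07, limma adjusted p = 0.795) and *Vim* (0.19, 0.572). Amacrine cell markers summed to 5598 to 5659 in CKO and 4329 to 4666 in control, with 2 of 7 tested markers higher, *Slc32a1* (limma adjusted p = 0.0242) and *Slc6a9* (log2 change 0.96, 0.0102). Of 3 tested horizontal cell markers *Onecut2* rose (1.42, 0.0171) and *Calb1* fell (-1.48, 2.56e-04), at sums of 284 to 574 in CKO and 354 to 580 in control. Of 2 tested progenitor markers *Hes5* rose (1.85, 0.00138), at sums of 204 to 350 in CKO and 59.4 to 118 in control. None of 7 ganglion cell markers was called, with 3 at an unadjusted p under 0.05. Retinal pigment epithelium markers summed to 1014 to 2771 in CKO and 582 to 1518 in control, with 2 of 5 tested markers higher, while red blood cell and lens markers were below the limit in both groups. The part of these cell differences in the changes of *Nr4a1*, *Egr1*, *Fos*, *Ier2* and *Ier5* was not tested.

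Of 49 further immediate early genes with a probe set, 24 were tested at P12, and 2 rose and 3 fell. The largest change was in *Ier3*, a gene of cell survival that NF-kappaB and stress induce. Its signals were 37.7, 70.8 and 61.9 in CKO, against 494, 1078 and 833 in control, far apart (log2 change -3.45, SE 0.29, limma adjusted p = 1.54e-06). Its genotype effect at P12 minus that at P1 was -2.77 (adjusted p = 9.97e-04). *Trib1*, a pseudokinase, averaged 90.3 ± 32.9 in CKO and 280.4 ± 109 in control (-1.46, adjusted p = 0.00211), and *Btg2*, an antiproliferative gene, 146 ± 34.0 in CKO and 307 ± 85.4 in control (-0.99, 0.0137). *Gadd45g*, a stress-response gene, averaged 132 ± 28.4 in CKO and 68.2 ± 23.4 in control (0.84, 0.0255), and *Rgs2*, which limits G protein signalling, 418 ± 5.37 in CKO and 239.5 ± 33.0 in control (0.77, 0.00624). *Btg2* was not called without P12 CKO replicate 1 (adjusted p = 0.0543), nor *Gadd45g* without P12 control replicate 1 or 3 or P12 CKO replicate 2 or 3 (up to 0.0872). *Rgs2* lost its call with median scaling (0.0816) and with each age fitted alone (0.0600), and its adjusted p was 8.26e-04 to 0.0816 over its alternatives. The other 19 did not pass, and the median change of the 24 was 0.08. At P1 0 of 24 passed, with 4 at an unadjusted p under 0.05.

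**Figure D4:**
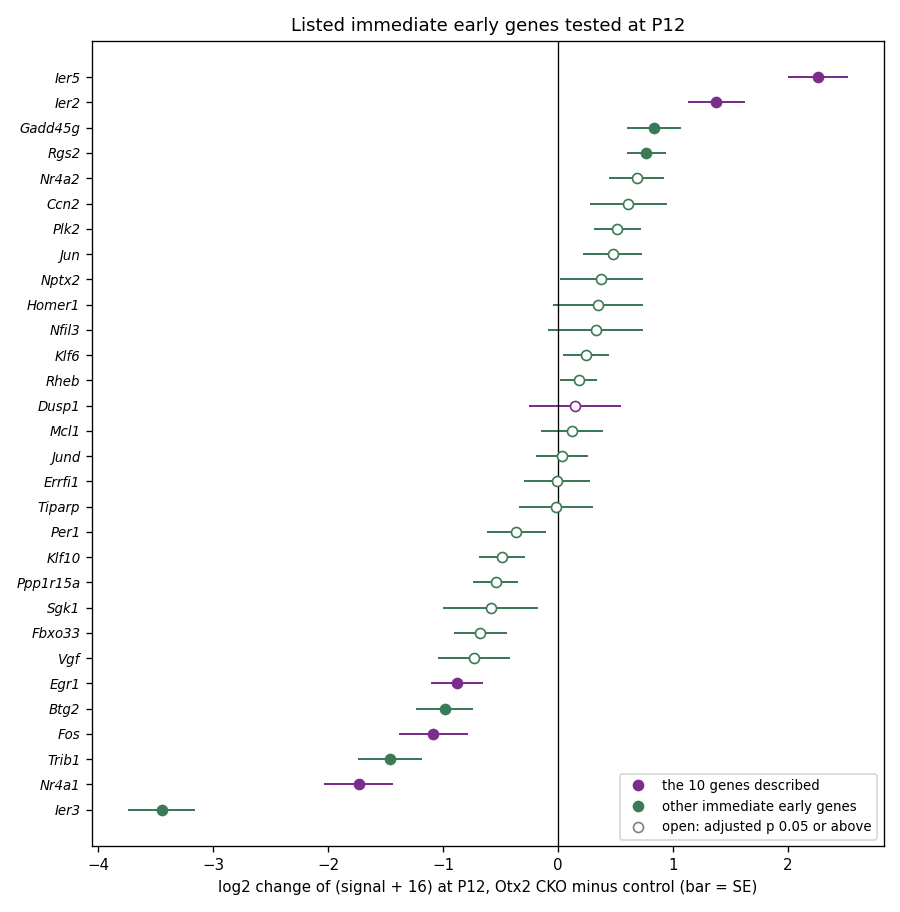
Log2 change at P12, CKO over control, of every tested member and further listed immediate early gene, with bars for the SE and filled points for an adjusted p under 0.05. Of the 24 further genes 19 are open, *Ier3* is lowest at -3.45 and *Ier5* highest at 2.26.

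Among the genes that restrain or carry the upstream signal, 12 of 14 MAP kinase phosphatase and Sprouty feedback genes were tested at P12. The phosphatases *Dusp5* (-1.47, limma adjusted p = 0.00381) and *Dusp7* (-1.20, 0.00610), which act on ERK, fell, and 3 genes rose, of which *Dusp16*, a phosphatase of JNK and p38, had the largest change (0.95, 0.00688). Of 20 tested regulators of the SRF, CREB and MAP kinase pathways 1 was called, *Mef2d*, an activity-dependent transcription factor, at 356 ± 67.5 in CKO and 1122 ± 46.0 in control (-1.63, 6.09e-05). Of 10 tested partners and relatives of Fos, Jun and Atf3 proteins, *Bach2* (1.34, 0.00804) and *Maf* (0.85, 0.0128) rose and *Atf4*, the effector of the integrated stress response, fell (-1.02, 3.43e-04). In the stress response and endoplasmic reticulum list 2 of 9 tested genes were called, *Dnajb9* higher (0.61, 0.0370) and *Vldlr* lower (-1.39, 5.84e-04). *Dnajb9* was not called after the omission of any array but P1 CKO replicates 1 and 2 and P12 control replicate 3 (adjusted p up to 0.0999).

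Of 12 tested heat shock and dissection stress genes 2 fell and 1 rose. The inducible Hsp70 genes *Hspa1a* and *Hspa1b* have near-identical sequences, so their probe sets may share signal. *Hspa1a* had 16.7, 29.3 and 28.3 in CKO at P12, against 76.6, 160.2 and 92.0 in control (log2 change -1.58, limma adjusted p = 5.26e-04). *Hspa1b* had 61.3, 160.3 and 85.5 in CKO, against 187, 616 and 298 in control (-1.62, 0.00922). Both were lower in CKO without overlap of the arrays, as *Nr4a1* and *Egr1* were, although their highest control array was replicate 2 and that of *Nr4a1* and *Egr1* was replicate 3. The part of heat shock gene differences in the changes of the members was not tested. The metallothionein *Mt1* rose (0.89, 0.0118), with an adjusted p of 0.0501 without P12 CKO replicate 2. Of 7 tested axon injury genes 4 rose, led by *Sox11* (4.38, 4.35e-05), *Stmn4* (1.77, 4.00e-04) and *Gap43* (1.45, 7.32e-04). On the normalized scale *Sox11*, *Stmn4* and *Gap43* fell with age in control (-3.52, -1.15 and -1.89). The list genes *Jun* (0.48, limma adjusted p = 0.246), *Stat3* (0.41, 0.205) and *Cebpd* (0.40, 0.458) did not pass at P12. *Sprr1a*, *Gal*, *Ecel1* and *Bcl3* were below the limit there. Of 9 tested p53 targets *Bbc3* rose (1.06, 0.0116).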

How the data were processed

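The authors hybridised biotin-labelled cRNA from whole retinas to GeneChip Mouse Genome 430 arrays and deposited signal intensity values from GeneChip Operating Software 1.4, unlogged. No further normalization is given in the sources used here, and 826 values were 0. The intensity values were quantile normalized over the 12 arrays, 16 was added, and log2 values were fitted in 1 model of 4 groups with limma 3.58.1 (lmFit, eBayes with trend) in R 4.3.3. Probe sets with a mean normalized signal of at least 50 in 1 of the groups compared were tested, with Benjamini-Hochberg adjustment over them and a threshold of 0.05. A gene was counted by its brightest probe set. Of 45101 probe sets 64 were controls. Another 34958 had 1 gene symbol, 932 several and 9160 none, and only probe sets with 1 symbol were named.

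Arrays were grouped by title, source name, genotype field and age. The study calls them independent experiments, and whether the arrays of a group came from separate animals is not given in the sources used here, so p-values measure the spread between arrays, whose number limits the precision. No 2 arrays had identical values. The titles number the arrays by experiment. Deviations from group means of same-numbered CKO and control arrays correlated at 0.829, 0.880 and 0.571 at P12 and at 0.194, 0.144 and 0.268 at P1. The numbers were therefore taken to pair the samples within an age. The main fit and its p-values do not use this pairing, and a fit with the number as a block is an alternative. That block is shared by both ages, and whether a number links P1 and P12 arrays was not examined. A block within each age matches the pairing, and the differences of genotype effects it added are given with those results.

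The members and lists were chosen with earlier results of these data known. Named were *Otx2*, all member probe sets, of each other list up to 6 (further immediate early genes) or 3 called genes with the largest change, and the 10 genes most like the members. Some listed genes that were not called are named beside them. Alternatives were other scalings, offsets, signal limits and models, and leaving out single arrays. The block within each age and the joint omission of both P12 arrays of experiment 1 were chosen after seeing the data. The fit was tested on simulated data.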

Additional observations from a re-analysis of the deposited data

Results flagged for a closer look

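The genotype effect on 2 member genes differed between the ages, by the interaction term of the limma fit over 4 groups. For *Ier5* the log2 effect at P12 minus that at P1 was 1.90 (adjusted p = 0.00745), with CKO above control in 3 of 3 experiment numbers at P12. This call was lost with median scaling (adjusted p = 0.164), the highest value over its alternatives, which began at 4.67e-05. For *Nr4a1* it was -1.64 (adjusted p = 0.0420), with CKO below control in 3 of 3 experiment numbers at P12. This call was lost in 9 of 12 omissions of a single array and with median scaling (0.116), over a range of 0.00480 to 0.116. *Nr4a1* passed the signal limit only in control at P12, and its P1 effect was too dim to test. Its difference therefore largely restates its P12 effect.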

How the results depend on the processing

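The count of member genes called at P12 was 5 in 21 of 29 alternatives, 1 of which, counting a gene by any of its probe sets, has no value for a single probe set. It was 3 on the signals as deposited, with median scaling and with each age fitted alone, and 3 to 5 with single arrays left out. *Fos* and *Egr1* were the genes that lost their call. At P1 it was 0 throughout. The count for the difference of the genotype effects was 2. It was 0 with median scaling, 1 with 2% trimmed mean scaling, with an offset of 50 and without the signal limit, 5 with the replicate block within each age, and 1 to 3 with single arrays left out. With median scaling the difference of *Ier5* had an adjusted p of 0.164 (4.67e-05 to 0.164 over its alternatives). The counts in this paragraph are given without the share of all probe sets called in each setting. A change of count between settings is therefore not a result about the members.

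The count for P12 against P1 in CKO was 2. It was 7 as deposited and with quantile normalization within each age, with or without the block, 4 with spike scaling, 4 with the replicate block, 4 without both P12 arrays of experiment 1, and 2 to 4 with single arrays left out. In control it was 4, 6 with the replicate block, and 7 with quantile normalization within each age with or without the block, and 4 to 5 with single arrays left out. The median of all probe sets moved by 1.68 in CKO and 1.67 in control under that normalization, and by 0.56 and 0.68 with spike scaling. Member changes with age are relative to that median. The counts in these settings are given without the share of all probe sets called there, so they are not a result about the members. The replicate block changed no member call at P12 or P1. Beyond the calls it added for *Ier2*, *Ier5* and *Dusp1*, given with those results, it changed no other call of a member with age.

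Some uncalled or age changes turned sign. *Dusp1* at P12 was -0.025 without both arrays of experiment 1 and -0.38 to 0.52 with single arrays left out, and its difference of effects was 0.42 as deposited and -0.59 to 0.31 with single arrays left out. With age in CKO *Dusp1* was 1.23 as deposited and 0.97 with quantile normalization within age, with or without the block. In control *Dusp1* was 0.81 and 1.02, *Ier2* 1.06 and 1.31, and *Ier5* (1417612_at) 0.50 and 0.75, in the same settings. *Ier2* was 0.22 with spike scaling, and 1460009_at of *Ier5* 0.82 with quantile normalization within age. In CKO 1417613_at was 1.90 as deposited, 1.66 with quantile normalization within age with or without the block, 0.010 with 2% trimmed mean scaling, 0.54 with spike scaling, 0.023 with an offset of 50, 0.20 by the signal log ratio, 0.60 without both P12 arrays of experiment 1, and -0.40 to 0.60 with single arrays left out. The cause was not tested beyond these shifts of scale.

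The list counts of further immediate early genes at P12 were 4 higher and 5 lower with the replicate block, 7 higher and 2 lower as deposited, and 0 higher and 2 lower with median scaling or each age fitted alone. The share of all probe sets called in those settings is not given here, so these shifts are not a result about the list. After normalization over the 12 arrays *Fosb*, *Junb*, *Arc* and *Atf3* were too dim to test, and 3 arrays a group limit what was detectable. On the signals as deposited *Junb* passed the limit of 50 at P12, with means of 63.4 in CKO and 55.7 in control. It was then among the members called with age in CKO.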
